A study of Mus musculus with 2 samples.

Results

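The genes described here are 7 of the 19 *Ms4a* genes among the 54838 genes of the count tables: *Ms4a7*, *Ms4a6b*, *Ms4a6c*, *Ms4a6d*, *Ms4a4a*, *Ms4a4c*, and *Ms4a14*. The rule names them and uses no measured value, although the list was drawn up with earlier results of these data known. Their RNA was measured by single-cell RNA sequencing of CD64+ CD45int macrophages sorted from the pooled sciatic nerves of 19 male Flt3-Cre LSL-YFP fl/fl mice aged 10 to 12 weeks. In these mice, Cre is driven by *Flt3*, so the progeny of *Flt3*-expressing multipotent progenitors carry YFP, which per the study include those of fetal monocytes. The study therefore reads the YFP− library as embryonic-derived and the YFP+ library as macrophages derived from hematopoietic stem cells (HSCs). Both groups came from the same pool of mice, carried the same alleles, and received no treatment, and they were separated by the YFP gate. Each group is 1 library, so no difference between them has a replicate check and no p-value is given.

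Barcodes with at least 500 unique molecular identifiers (UMIs) and at least 200 genes were taken as cells. There were 1045 such cells in the YFP− library, with a median of 2233 UMIs, and 4053 in the YFP+ library, with a median of 1484 UMIs. The cells held 2418044 and 6747554 UMIs, so that 3 UMIs, taken as the floor, correspond to 1.24 CPM (a gene's UMIs scaled to 1000000 UMIs of its library) in YFP− and 0.445 CPM in YFP+ cells. The libraries shared 7 cell barcodes. All 9 macrophage markers, *Csf1r* and *Fcgr1* among them, were detected in both libraries, with a summed level of 19302 CPM in YFP− against 19346 CPM in YFP+ cells. Of B cell markers, *Cd79a* was at 0 in both, whereas *Ighm* was at 316 and 326 CPM and *Cd79b* at 57.9 and 53.8 CPM. Also at 0 in both were *Cd3e* and *Cd3g* of T cells and *Cpa3* and *Mcpt4* of mast cells. The T cell marker *Cd3d* had 1 UMI in YFP− and 6 in YFP+ cells, the latter above the floor. Of the mast cell markers, *Kit* had 1 and 0 UMIs and *Cma1* 0 and 2. RNA of nerve cells other than macrophages was present. The 5 Schwann cell markers summed to 689 CPM in YFP− against 630 CPM in YFP+ cells, the 5 fibroblast markers to 23.2 and 93.4 CPM, and the 4 mural cell markers to 8.68 and 112 CPM.

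MS4A proteins (membrane-spanning 4-domains, subfamily A) are small proteins with 4 membrane-spanning segments that sit beside other receptors in the plasma membrane and in endosomes. The family is best known for MS4A1, the B cell antigen CD20, and MS4A2, the beta chain of the mast cell receptor for IgE. The *Ms4a4*, *Ms4a6*, and *Ms4a7* genes are expressed by myeloid cells. MS4A4A has been found beside dectin-1, the product of *Clec7a*, in macrophages, and variants at the human *MS4A* locus are associated with Alzheimer's disease and with the level of soluble TREM2.

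The 7 genes lie side by side on chromosome 19 (GRCm38, GENCODE M21 annotation), within 304 kb. In order along the chromosome these are *Ms4a14* (11301249 to 11314454, minus strand), *Ms4a7* (11321039 to 11336146, minus strand), *Ms4a4a* (11375523 to 11392790, plus strand), *Ms4a4c* (11404770 to 11427246, plus strand), *Ms4a6c* (11469366 to 11482192, plus strand), *Ms4a6b* (11516512 to 11531256, plus strand), and *Ms4a6d* (11586604 to 11604849, minus strand). Of the 2 other family members in this stretch, *Ms4a4b* was at 5.79 and 8.6 CPM in YFP− and YFP+ cells. This was near *Ms4a14* (6.62 and 5.04 CPM) and below the remaining members described here. *Ms4a4d* was under the floor. The 7 genes thus differed widely in level along the locus, from 5.04 CPM for *Ms4a14* to 799 CPM for *Ms4a6c* in YFP+ cells.

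**Figure D1:**
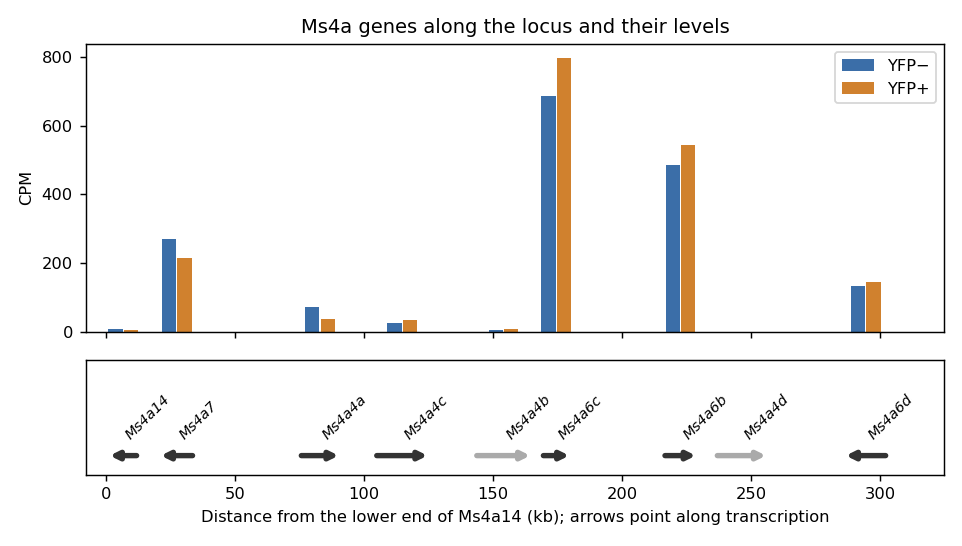
Level in CPM of the summed counts of YFP− and YFP+ cells (bars) for the 9 *Ms4a* genes between *Ms4a14* and *Ms4a6d*, drawn at their distance in kb along the locus. Arrows point along transcription, dark for the 7 genes described and gray for *Ms4a4b* and *Ms4a4d*. *Ms4a6c* and *Ms4a6b* stand highest in both libraries.

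Promoter sequences are shown for the members whose levels the results turn on: *Ms4a6c* and *Ms4a6b*, the most abundant and the most alike, *Ms4a4a* and *Ms4a7*, which were lower in YFP+ cells, and *Ms4a4c*, which was highest in a cluster led by interferon-induced genes. Each is the RefSeq window (GRCm38.p6) from 250 bases before to 50 bases after the transcription start, so that its last 50 bases are transcribed. It is written 5′ to 3′ on the strand of the gene. Of the 7 members, 6 have an entry, *Ms4a7* has 2 of which the outer start is shown, and *Ms4a6d* is named only. Capitals mark the ETS core GGAAGT on either strand, the sequence bound by PU.1 and related factors of the macrophage lineage.

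Ms4a6c, chr19:11469118-11469417, plus strand: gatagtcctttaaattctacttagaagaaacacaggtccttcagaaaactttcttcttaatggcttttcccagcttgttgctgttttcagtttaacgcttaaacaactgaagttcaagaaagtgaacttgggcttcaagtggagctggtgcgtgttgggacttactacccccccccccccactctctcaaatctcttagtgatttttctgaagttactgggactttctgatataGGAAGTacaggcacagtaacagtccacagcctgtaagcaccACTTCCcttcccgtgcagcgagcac

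Ms4a6b, chr19:11518309-11518608, plus strand: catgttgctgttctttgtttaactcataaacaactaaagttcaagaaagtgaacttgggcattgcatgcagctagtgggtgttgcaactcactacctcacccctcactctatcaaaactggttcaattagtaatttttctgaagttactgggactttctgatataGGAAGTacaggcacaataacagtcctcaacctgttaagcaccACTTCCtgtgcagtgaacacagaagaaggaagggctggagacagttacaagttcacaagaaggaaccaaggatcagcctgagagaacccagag

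Ms4a4a, chr19:11375238-11375537, plus strand: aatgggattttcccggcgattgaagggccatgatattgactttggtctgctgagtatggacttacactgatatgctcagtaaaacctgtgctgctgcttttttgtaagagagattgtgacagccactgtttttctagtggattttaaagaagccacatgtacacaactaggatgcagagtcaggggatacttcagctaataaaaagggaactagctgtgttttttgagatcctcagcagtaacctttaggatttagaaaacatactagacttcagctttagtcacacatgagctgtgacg

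Ms4a4c, chr19:11407411-11407710, plus strand: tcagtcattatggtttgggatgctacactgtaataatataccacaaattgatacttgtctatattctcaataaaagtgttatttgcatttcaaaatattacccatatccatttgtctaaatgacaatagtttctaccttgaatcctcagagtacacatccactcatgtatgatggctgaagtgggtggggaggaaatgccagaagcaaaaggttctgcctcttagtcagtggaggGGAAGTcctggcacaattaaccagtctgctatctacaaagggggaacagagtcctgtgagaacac

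Ms4a7, chr19:11336097-11336396, minus strand: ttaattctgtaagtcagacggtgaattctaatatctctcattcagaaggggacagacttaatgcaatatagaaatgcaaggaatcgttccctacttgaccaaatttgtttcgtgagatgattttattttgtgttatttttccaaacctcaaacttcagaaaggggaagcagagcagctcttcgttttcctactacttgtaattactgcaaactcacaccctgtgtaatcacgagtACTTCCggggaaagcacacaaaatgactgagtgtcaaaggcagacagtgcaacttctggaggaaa

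The *Ms4a6c* and *Ms4a6b* windows were much more alike than the other pairs. Their best local alignment covered 221 columns with 182 identical bases, an identity of 82.4%, whereas no other of the 21 pairs of windows reached an alignment score above 16, against 136 for this pair. Both windows hold GGAAGT once on each strand, and *Ms4a4c* and *Ms4a7* hold it once. In all, 4 of the 7 windows of members held the core, as did 23.8% of the 32851 windows in the table. The AP-1 motif TGANTCA was in 2 of the 7 windows, those of *Ms4a14* and the inner start of *Ms4a7*, and in 7.81% of all windows. Neither the C/EBP motif TTGCNNAA (10.8% of all windows) nor GAAA followed after 2 bases by GAAA, the core of the interferon-stimulated response element (3.44% of all windows), was found in the windows of members. Both strands were searched, and these matches are letters in a window and not binding sites. For *Ms4a4c* and *Ms4a6b* the GENCODE gene begins upstream of the RefSeq window.

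Likeness to other genes, in the family or outside it, also bears on the counts of members. For each member, the 50-base stretches in the last 500 bases of its coding transcripts were looked for in other genes. Of those of *Ms4a6c*, 13.7% occur in *Ms4a6b* or in *1700086O06Rik*, *Gm44997*, or *Prdm11*, which are outside the family. Of those of *Ms4a4c*, 11.1% occur in *Ms4a4b* or *Ms4a4d*. The share was 1.22% for *Ms4a6b* and 0 for *Ms4a7*, *Ms4a6d*, *Ms4a4a*, and *Ms4a14*. The exons of *Ms4a6c*, *Ms4a6b*, and *Ms4a4c* each overlap a gene on the opposite strand. Levels of these 3 genes are uncertain to the extent of their shared stretches, and an effect of the overlaps on the counts was not tested.

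The *Ms4a6* genes made up most of the family's RNA. *Ms4a6c* was the highest member, with 686 CPM (95% interval 653 to 720, 1659 UMIs) in YFP− and 799 CPM (777 to 820, 5388 UMIs) in YFP+ cells. *Ms4a6b* followed with 486 CPM (459 to 515) and 544 CPM (526 to 562). Together these genes held 69.9% of the 4057 UMIs of the 7 members in YFP− and 75.5% of the 11995 in YFP+ cells. *Ms4a6d*, whose product has been described with VSIG4 in restraining inflammatory macrophages, was at 132 CPM (118 to 148) and 144 CPM (135 to 153). All intervals given are exact Poisson intervals at 95%, and they cover counting error only.

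*Ms4a7* ranked between *Ms4a6b* and *Ms4a6d*, with 271 CPM (251 to 292, 655 UMIs) in YFP− and 216 CPM (205 to 227, 1456 UMIs) in YFP+ cells. *Ms4a4a* was at 71.1 CPM (60.9 to 82.6, 172 UMIs) in YFP− and 36.0 CPM (31.6 to 40.8, 243 UMIs) in YFP+ cells. *Ms4a4c*, known as a gene raised by interferon in myeloid cells, was at 24.8 CPM (18.9 to 31.9, 60 UMIs) and 34.5 CPM (30.2 to 39.3, 233 UMIs). *Ms4a14*, known mainly from testis, had only 16 and 34 UMIs, or 6.62 CPM (3.78 to 10.7) and 5.04 CPM (3.49 to 7.04). The order of the 7 members was the same in both libraries. In YFP+ cells the neighbors *Ms4a4a* and *Ms4a4c* did not differ beyond their intervals, and the intervals of all other neighbors were apart in both. UMIs count captured 3′ ends of molecules, so no correction for length was made in this order.

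**Figure D2:**
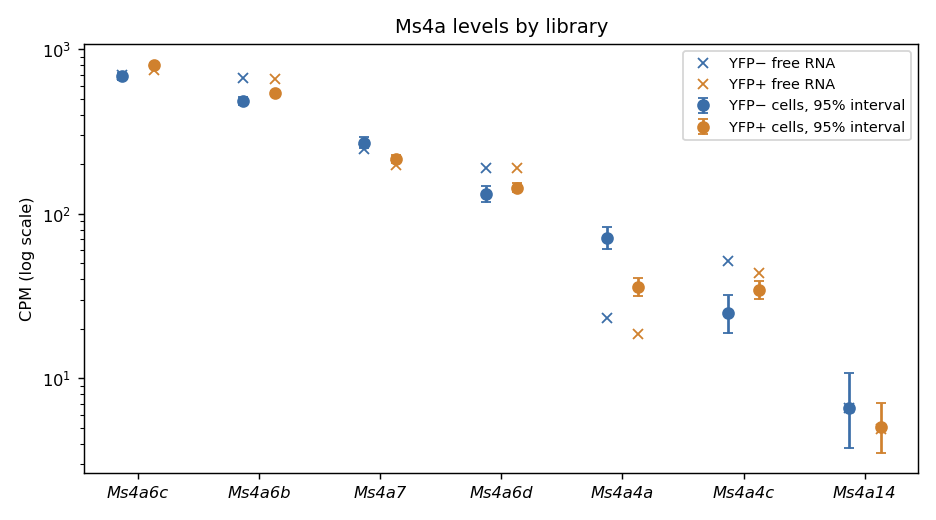
Level in CPM (log scale) of each member in YFP− and YFP+ cells (circles, with exact Poisson 95% intervals) and in the free RNA of the same library (crosses, barcodes with 10 to 100 UMIs). *Ms4a4a* is the member with its circles farthest above its crosses and farthest apart between libraries.

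Summed over the 7 members, the family was at 1678 CPM (1627 to 1730) in YFP− and 1778 CPM (1746 to 1810) in YFP+ cells. The log2 ratio of YFP+ over YFP− cells, taken after adding 1 CPM, was 0.08 (0.03 to 0.14). The median log2 ratio of the 7 members was 0.12, and that of the 5531 genes with a mean of at least 20 CPM was 0.00. Of the 6 members above that mean (*Ms4a14* was below it), 1 was lower in YFP+ cells by 1.5-fold or more and none was higher. Among all 5531 genes, 5.77% were lower and 1.54% higher by as much.

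That member was *Ms4a4a*, which was 1.95-fold higher in YFP− than in YFP+ cells, with a log2 ratio of −0.96 (−1.24 to −0.68). A ratio at or below this value was found for 3.51% of the 5531 genes. *Ms4a7* differed in the same direction by less, with a log2 ratio of −0.33 (−0.46 to −0.19). The *Ms4a6* genes were slightly higher in YFP+ cells, by 0.22 (0.14 to 0.30) for *Ms4a6c* and 0.16 (0.07 to 0.26) for *Ms4a6b*, whereas the interval for *Ms4a6d* held 0 (0.12, −0.06 to 0.31). *Ms4a4c* had a ratio of 0.46 (0.06 to 0.88), and *Ms4a14* of −0.33 (−1.11 to 0.47). Of the 5531 genes, 12.1% had a ratio at or below that of *Ms4a7*. This share was 77.6% for *Ms4a6b*, 84.4% for *Ms4a6c*, and 96.9% for *Ms4a4c*. By intervals for counting error only, *Ms4a4a* and *Ms4a7* were lower, and *Ms4a6c*, *Ms4a6b*, and *Ms4a4c* higher, in YFP+ cells of this pair of libraries. The ratios of *Ms4a7*, *Ms4a6b*, and *Ms4a6c* lay within the range of many other genes and are not read as a result about the members.

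The direction for *Ms4a4a* was also seen in cells of like depth. Among cells with 500 to 1000 UMIs it was at 70.3 CPM in YFP− against 49.8 CPM in YFP+ cells, and among those with 1000 to 2000 UMIs at 74.8 and 37.4 CPM. Between 2000 and 4000 UMIs it was at 68.5 and 33.3 CPM, and from 4000 UMIs at 78.6 and 18.2 CPM, the latter from 7 UMIs in 79 cells. The intervals of the shallowest class overlapped (30.4 to 139 and 36.2 to 66.8), and those of the other 3 classes were apart. *Ms4a7* was likewise lower in YFP+ cells in each of the 4 classes, between 261 and 299 CPM in YFP− against between 161 and 227 CPM in YFP+ cells. *Ms4a6c* was higher in YFP+ cells up to 4000 UMIs, whereas from 4000 UMIs it was at 646 CPM (564 to 737) in YFP− and 626 CPM (549 to 710) in YFP+ cells.

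Free RNA, measured in barcodes with 10 to 100 UMIs, held the members as well. *Ms4a6c* was at 702 CPM in the free RNA of the YFP− and 751 CPM in that of the YFP+ library, and *Ms4a7* at 247 and 197 CPM, close to their levels in cells. *Ms4a6b* (667 and 659 CPM), *Ms4a6d* (190 and 191 CPM), and *Ms4a4c* (51.7 and 43.7 CPM) were higher in free RNA than in cells of either library. *Ms4a4a* went the other way, at 23.1 and 18.7 CPM in free RNA against 71.1 and 36.0 CPM in cells. With 10% of UMIs removed as free RNA, the log2 ratio of YFP+ over YFP− cells was −0.33 for *Ms4a7* and 0.19 for *Ms4a6b*. It was 0.23 for *Ms4a6c* and 0.60 for *Ms4a4c*. This 10% was a set share. The actual share of free RNA in cells was not measured, so its part in these differences was not tested further.

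Individual cells held few UMIs of any member. After each cell was thinned to 500 UMIs, which left no cell out, *Ms4a6c* was seen in 27.0% (Clopper-Pearson 95% interval 24.3 to 29.8) of YFP− and 30.6% (29.2 to 32.1) of YFP+ cells, and *Ms4a6b* in 19.0% (16.7 to 21.6) and 23.7% (22.4 to 25.1). *Ms4a7* was seen in 12.3% (10.4 to 14.5) and 9.77% (8.87 to 10.7), and *Ms4a6d* in 6.03% (4.66 to 7.65) and 6.61% (5.87 to 7.42). *Ms4a4a* was seen in 3.64% (2.59 to 4.96) of YFP− and 1.88% (1.48 to 2.34) of YFP+ cells. *Ms4a4c* was seen in 1.53% and 1.48%, and *Ms4a14* in 0.287% and 0.197%. These shares followed the order of the levels. The intervals of *Ms4a4a* and *Ms4a6b* did not overlap between the libraries, but cells of 1 library are not replicates. For *Ms4a6b* the order of the libraries also turned without thinning.

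Without thinning the shares were 66.0% and 62.5% for *Ms4a6c*, 56.3% and 51.3% for *Ms4a6b*, 38.1% and 25.1% for *Ms4a7*, 21.7% and 19.5% for *Ms4a6d*, 14.0% and 5.72% for *Ms4a4a*, 5.17% and 4.96% for *Ms4a4c*, and 1.34% and 0.814% for *Ms4a14*. For *Ms4a6c*, *Ms4a6b*, and *Ms4a6d* the order of the libraries turned with thinning, and YFP− cells were the deeper ones. As background, 500 UMIs drawn from free RNA alone would show *Ms4a6c* in 29.6% and 31.3%, *Ms4a6b* in 28.4% and 28.1%, *Ms4a7* in 11.6% and 9.36%, and *Ms4a6d* in 9.07% and 9.1% of barcodes. It would show *Ms4a4a* in 1.15% and 0.93% and *Ms4a4c* in 2.55% and 2.16%. The intervals of *Ms4a6b*, *Ms4a6d*, and *Ms4a4c* in cells lay below the free RNA shares in both libraries. Those of *Ms4a6c*, *Ms4a7*, and *Ms4a14* held the free RNA shares. The shares of these members thus cannot tell a cell's own RNA from free RNA. No share of any member is read as expression, as absence, or as a difference between the libraries. *Trem2* was likewise higher in free RNA (440 and 471 CPM) than in cells (317 and 353 CPM), whereas *Cd74* was lower (16153.5 and 18251 against 22091 and 29333 CPM). *Ms4a4a* was the member whose interval lay above the free RNA share in both libraries. In a cluster of 95 cells led by the smooth muscle genes *Myh11* and *Tagln* (median 941 UMIs), *Ms4a6c* was seen in 16.8% of thinned cells, *Ms4a6b* in 8.42%, *Ms4a7* in 5.26%, and *Ms4a6d* in 3.16%. The other 3 were seen in none, where 3 cells, taken as the limit, would be 3.16%. That cluster held a mix of RNA, with Schwann cell markers at 22455 CPM, mural cell markers at 5246 CPM, and fibroblast markers at 3703 CPM. Macrophage markers were still at 7532 CPM in it, so it is not a background free of macrophage RNA.

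Most cells showed 1 member at most at this depth. Of thinned YFP− cells, 48.1% held no member, 36.4% held 1, 13.2% held 2, and 2.30% held 3 or more. Of thinned YFP+ cells, 44.2% held none, 39.7% held 1, 14.0% held 2, and 2.12% held 3 or more. At least 1 member was seen in 51.9% (48.8 to 54.9) of YFP− and 55.8% (54.3 to 57.3) of YFP+ cells. With all UMIs kept, these shares were 88.1% and 83.5%. At 500 UMIs, free RNA would show *Ms4a6c* alone in 29.6% and 31.3% of barcodes, and its share for any member was not computed. The shares of cells with a member are thus not read as shares of cells that express the family.

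Cells of both libraries were clustered together without any *Ms4a* gene, which gave 10 clusters that are called here by number and leading genes. Cluster 1 (1157 cells) was led by *Fhl3* and *Slc39a1*, cluster 2 (1141 cells) by *Tslp* and *Cp*, cluster 3 (720 cells) by *S100a4* and *Tppp3*, and cluster 4 (700 cells) by *Cyr61* and *Fosb*. Cluster 5 (648 cells) was led by *Cxcl2* and *Hspa1a*, cluster 6 (289 cells) by *Gm28661* and *Gm10925*, and cluster 7 (139 cells) by the lectin genes *Cd209g* and *Cd209f*. Cluster 8 (131 cells) was led by the interferon-induced genes *Irf7* and *Ifit2*, cluster 9 (95 cells) by *Myh11* and *Myl9*, and cluster 10 (78 cells) by the mitotic genes *Top2a* and *Birc5*. Levels per cluster are a description, since cells of a cluster come from the same libraries.

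Between the highest and the lowest of the 8 clusters with more than 100 cells, *Ms4a6b* differed 1.35-fold, *Ms4a6d* 1.46-fold, *Ms4a7* 1.47-fold, *Ms4a6c* 1.75-fold, *Ms4a4a* 2.74-fold, and *Ms4a4c* 9.76-fold. So 3 of 6 members differed by at least 1.5-fold, where 91% of the 5531 genes did. That share covers genes down to a mean of 20 CPM, for which the highest and lowest cluster also differ by counting error. The part of counting error in it, and that of the 2000 genes used for the clustering, was not tested. *Ms4a14*, with few UMIs and below the mean of 20 CPM, differed 17.2-fold and was not counted. *Ms4a6c* lay between 748 and 860 CPM in clusters 1, 2, 4, 5, 6, and 8, at 643 CPM (603 to 685) in the *S100a4* cluster 3, and at 492 CPM (401 to 597) in the *Cd209g* cluster 7. *Ms4a6b* was likewise at 542 to 587 CPM in the same 6 clusters, at 436 CPM (403 to 471) in cluster 3, and at 458 CPM (370 to 560) in cluster 7. Over the 8 clusters, *Ms4a6d* ranged from 116 CPM in cluster 1 to 169 CPM in cluster 5. In the *Myh11* cluster 9, where the macrophage markers were lower as well, *Ms4a6c* was at 304 CPM (218 to 413), *Ms4a6b* at 208 CPM, and *Ms4a6d* at 44.5 CPM, each at its lowest.

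*Ms4a7* lay between 187 CPM (166 to 210) in cluster 3 and 276 CPM (250 to 304) in cluster 4 over the 8 clusters with more than 100 cells, and at 119 CPM (80.0 to 172) in the mitotic cluster 10. *Ms4a4a* was more uneven. Over both libraries it was at 48.6 to 62.9 CPM in clusters 1, 2, 4, 6, and 8. It was at 22.4 CPM (15.4 to 31.4) in cluster 3, 30.3 CPM (22.0 to 40.7) in cluster 5, and 28.9 CPM (10.6 to 62.9, 6 UMIs) in the *Cd209g* cluster 7. Clusters 3 and 5 were mostly YFP+ cells (88.8% and 87.5%), in which it was at 17.6 and 21.5 CPM. In YFP− cells it was at 48.0 CPM (23.9 to 85.8) in cluster 3 and 74.4 CPM (44.1 to 118) in cluster 5. The low level of cluster 5 was thus that of YFP+ cells. Cluster 9 held 1 UMI of *Ms4a4a* and cluster 10 held 0, for which the interval reaches 15.2 CPM. Over both libraries together, *Ms4a4c* stood out in a single cluster. It was at 150 CPM (105 to 206, 37 UMIs) in the interferon cluster 8 and between 7.42 and 36.5 CPM in the other 9, none of whose intervals reached above 61.7 CPM. In cluster 8 it was at 101 CPM (43.7 to 199, 8 UMIs) in YFP− and 173 CPM (116 to 248, 29 UMIs) in YFP+ cells. Each was the highest level of its library among clusters with at least 30 of its cells. In YFP+ cells the interval lay above those of the other clusters. In YFP− cells it overlapped others, such as that of cluster 5 (45.4 CPM, 22.7 to 81.3, 11 UMIs). The other members were not higher in cluster 8 than in clusters 2 and 4 by their intervals.

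**Figure D3:**
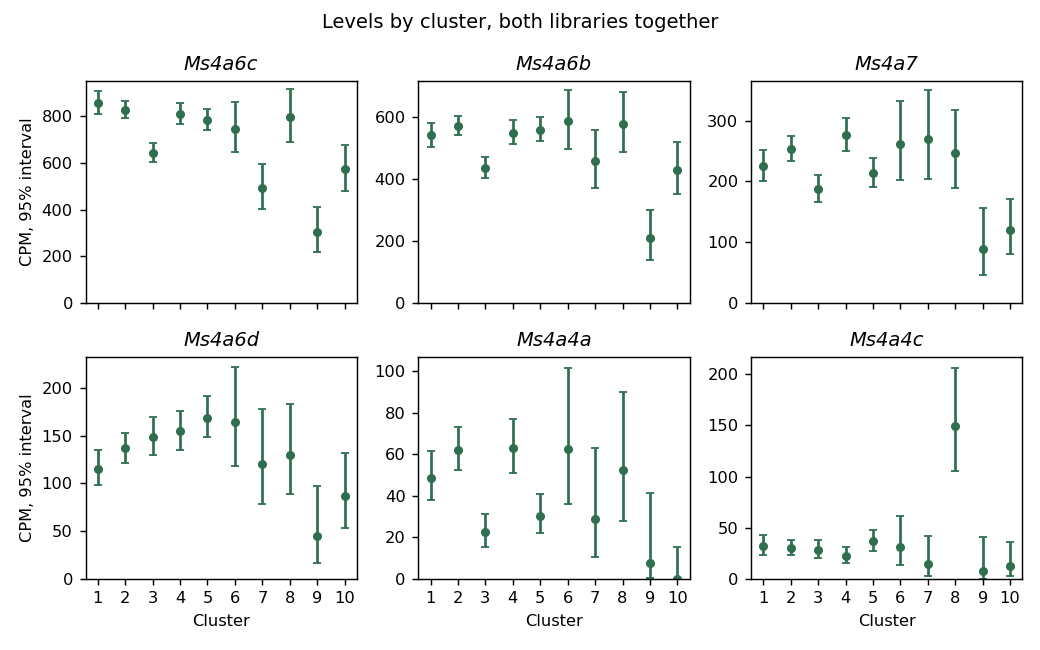
Level in CPM of 6 members in each of the 10 clusters, both libraries together, with exact Poisson 95% intervals (each vertical axis starts at 0 and has its own range). *Ms4a4c* is at 150 CPM in cluster 8, *Ms4a4a* is low in clusters 3 and 5, and all 6 are low in cluster 9. In YFP− cells alone, *Ms4a4a* is at 74.4 CPM in cluster 5.

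The libraries were unevenly spread over the clusters, with YFP+ cells forming between 64.7% (cluster 7) and 92.1% (cluster 1) of a cluster, so their ratio was also taken within the 8 clusters that held at least 30 cells of each. *Ms4a4a* was lower in YFP+ cells in 8 of 8 clusters, with log2 ratios from −1.74 to −0.22, and 4 of the intervals lay below 0. In the *Tslp* cluster 2 it was at 79.2 CPM in YFP− against 51.4 CPM in YFP+ cells, and in the *Cxcl2* cluster 5 at 74.4 and 21.5 CPM. *Ms4a7* was lower in YFP+ cells in 7 of 8 clusters (2 intervals below 0), the exception being cluster 7 with 232 and 293 CPM. *Ms4a6c* was higher in YFP+ cells in 8 of 8 clusters (4 intervals above 0) and *Ms4a6b* in 7 of 8 (3 intervals above 0). No interval of *Ms4a6d* or *Ms4a4c* lay to one side of 0. Cells of the 8 clusters come from the same 2 libraries and are not replicates of them.

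**Figure D4:**
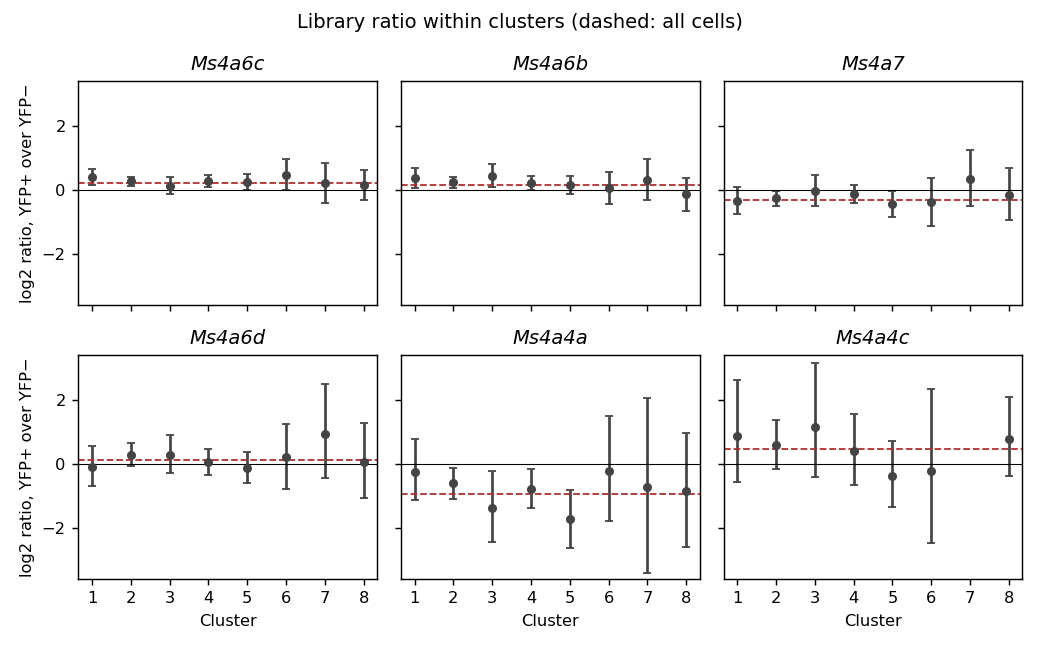
Log2 ratio of YFP+ over YFP− cells within clusters 1 to 8 for 6 members, with intervals for counting error, after adding 1 CPM. The dashed line is the ratio over all cells, and a cluster with 0 UMIs of the gene in a library is not drawn. All 8 points for *Ms4a4a* lie below 0 and all 8 for *Ms4a6c* above.

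Members were then followed with lists of genes that mark states of macrophages. In each library, cells thinned to 500 UMIs were split into those with many UMIs of a list, at most 25% of the cells, and the others. A member is counted below where it differed 1.5-fold or more in the same direction in both libraries. These splits rest on small counts for *Ms4a4a* and *Ms4a4c*.

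*Ms4a7* was higher in cells with many UMIs of the activated microglia list, which holds *Apoe*, *Trem2*, and *Tyrobp*. *Apoe* alone made up 88.4% of the list's UMIs in YFP− and 86.0% in YFP+ cells, so this was largely a split on *Apoe*, and *Cst7* was at 0. *Ms4a7* was at 425 CPM in upper and 234 CPM in other YFP− cells (log2 ratio 0.86, 0.35 to 1.35), and at 391 and 169 CPM in YFP+ cells (1.21, 0.93 to 1.49). With all UMIs of the same cells, it was at 390 and 238 CPM in YFP− against 385 and 166 CPM in YFP+ cells. With thinning to 1000 UMIs its log2 ratio was 0.42 in YFP−, short of 1.5-fold, and 1.08 in YFP+ cells. *Ms4a6d* was higher with this list too, at 185 against 109 CPM in YFP− (0.75, −0.02 to 1.5) and 198 against 127 CPM in YFP+ cells (0.64, 0.27 to 1.0), though with all UMIs its ratios were 0.55 and 0.52, short of 1.5-fold. *Ms4a6b* had ratios of 0.49 and 0.48. So 2 of 6 members were counted higher and none lower, where 1.36% of all genes were higher and 3.73% lower. With *Apoe* left out of the list, which was chosen after the values were seen, no member was counted. The *Ms4a7* ratio was then −0.32 in YFP− and 0.13 in YFP+ cells. With all UMIs of the cells it was −0.0033 in YFP− but 0.50 in YFP+ cells, so in YFP+ cells a smaller difference remained. Between clusters the pattern depended on the measure of the list. By the mean log2 ratio of its genes over other cells, cluster 3 was highest (0.36), with the lowest *Ms4a7* of the 8 larger clusters. By the summed level, which the split used, cluster 3 was low at 20592 CPM. Cluster 6 was then highest at 39566 CPM, with *Ms4a7* at 262 CPM. Cluster 7 was lowest by either measure (−1.41 and 13103 CPM), with *Ms4a7* at 269.9 CPM.

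With the Ccr2 list (*Ccr2*, *S100a4*, *Lgals3*, and others of monocyte-like cells), 3 of 6 members were counted lower and none higher, where 3.6% of genes were lower and 2.39% higher. Of this list, the monocyte genes *Plac8* and *Ly6c2* did not contribute. *Plac8* was at 0 in both libraries, and *Ly6c2* had 1 UMI in YFP− and 0 in YFP+ cells. *Ms4a7* was at 194 CPM in upper and 308 CPM in other YFP− cells (−0.66, −1.35 to −0.03) and at 120 and 238 CPM in YFP+ cells (−0.98, −1.48 to −0.51). *Ms4a4a* was at 40.5 and 85.2 CPM in YFP− (−1.06, −2.70 to 0.28) and 12.0 and 43.1 CPM in YFP+ cells (−1.76, −3.41 to −0.41), and *Ms4a4c* at 8.10 and 37.6 CPM and at 18.0 and 31.9 CPM, with 1 and 6 UMIs in the upper cells. With all UMIs of the same cells, which was chosen after the values were seen, the *Ms4a7* ratios were −0.28 and −0.64 and those of *Ms4a4a* −0.46 and −0.77. No member then reached 1.5-fold in both libraries, whereas the direction was kept in both for these 3 genes. With thinning to 1000 UMIs, *Ms4a4c* alone was counted, and *Ms4a4a* had a ratio of 0.02 in YFP− cells.

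With the interferon list, *Ms4a4c* and *Ms4a6d* were counted higher and no member lower, where 4.56% of genes were higher and 11.7% lower. The upper cells numbered 38 in YFP− and 184 in YFP+. *Ms4a4c* was at 52.6 against 29.8 CPM in YFP− cells (0.80, −3.81 to 3.46). In YFP+ cells it was at 76.1 against 27.4 CPM (1.44, 0.09 to 2.57). With all UMIs it was at 35.9 against 24.4 CPM in YFP− cells (0.54, −1.64 to 2.13), short of 1.5-fold. In YFP+ cells it was then at 89.5 against 31.8 CPM (1.47, 0.86 to 2.02). The YFP− values with thinning rest on 1 UMI of *Ms4a4c* and 4 UMIs of *Ms4a6d* in the upper cells. With all UMIs, these cells held 3 UMIs of *Ms4a4c*. *Ms4a6d* was at 211 against 125 CPM in YFP− against 239 against 138 CPM in YFP+ cells, whereas with all UMIs its ratios were 0.12 and 0.04, and with thinning to 1000 UMIs the YFP− ratio was −0.22.

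*Ms4a4c* was the member counted higher with the MHC class II list, at 41.8 against 27.3 CPM in YFP− (0.60, −1.21 to 2.19) and 47.0 against 24.7 CPM in YFP+ cells (0.90, 0.09 to 1.68). With all UMIs it was at 40.6 against 20.5 CPM (0.95, 0.14 to 1.72) and 58.4 against 27.4 CPM (1.07, 0.68 to 1.45). None was lower, and 0.959% of genes were higher and 4.89% lower. *Ms4a4c* was also counted with thinning to 1000 UMIs and with upper cells limited to 10%.

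With the resident scavenger list (*Lyve1*, *Cd163*, *Folr2*, and others), no member was counted in either direction, where 2.05% of genes were higher and 3.12% lower. *Ms4a4a* was at 79.9 against 28.1 CPM in YFP+ cells (1.48, 0.78 to 2.15) but at 69.3 against 76.2 CPM in YFP− cells (−0.14, −1.44 to 1.0). With all UMIs it was at 57.1 against 31.3 CPM in YFP+ and 100.1 against 64.0 CPM in YFP− cells, higher in the upper cells of both, although it was at 28.9 CPM in cluster 7, where this list was highest. No member was counted with the early response list (2.01% of genes higher, 2.3% lower), the inflammatory list (2.52% and 5.21%), the homeostatic microglia list (2.42% and 5.03%), or the cycling list (1.5% and 2.41%). *Ms4a4c* was at 74.4 against 19.3 CPM with the inflammatory list in YFP− cells but at 38.2 against 28.6 CPM in YFP+ cells.

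**Figure D5:**
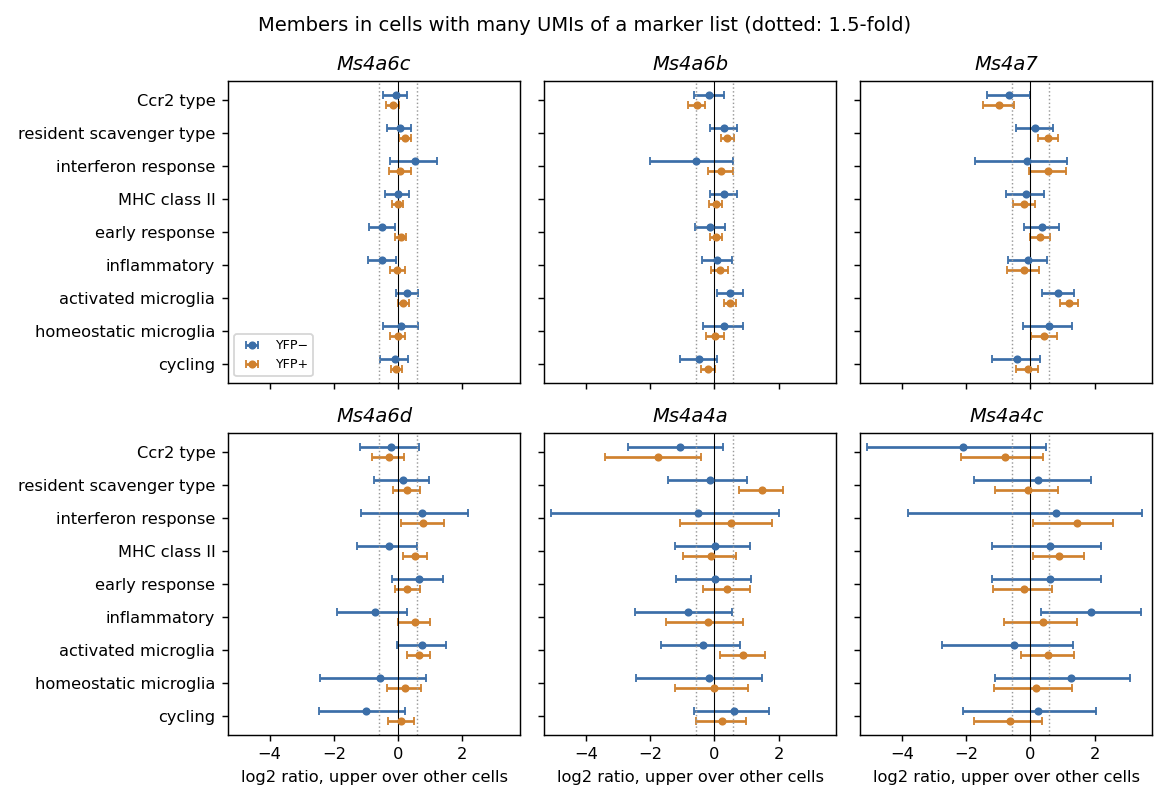
Log2 ratio of 6 members between cells with many UMIs of a marker list and the other cells of the same library, after thinning to 500 UMIs, with intervals for counting error. Dotted lines mark 1.5-fold. *Ms4a7* lies above them with the activated microglia list, which is mostly *Apoe*, and below them with the Ccr2 list in both libraries.

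Members were only weakly tied to each other from cell to cell. Over the 21 pairs of members, Pearson's r of log-scaled counts ranged from −0.02 to 0.17 over 4053 YFP+ cells (median 0.04) and from −0.03 to 0.17 over 1045 YFP− cells (median 0.04). The highest pair in both was *Ms4a6b* and *Ms4a6c*, at 0.17 and 0.17. These genes are the most abundant members, share some stretches of their transcripts, and have the most alike promoter windows. The part of each in this value was not tested. After thinning this pair was at 0.03 and 0.08, and in YFP+ cells *Ms4a6b* with *Ms4a4a* (0.05) and with *Ms4a6d* (0.04) then stood above it. Cells share a library and differ in depth, which such values follow, and a weak correlation in sparse counts is only a description.

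Among 1208 genes with at least 100 CPM in both libraries, the 3 most like each member in YFP+ cells all had a low r, and after thinning to 500 UMIs none was above 0.11 in YFP+ cells. For *Ms4a7* they were *Apoe* (r 0.20 in YFP+ and 0.14 in YFP− cells), *Ctsb* (0.14 and 0.08), and *Lgmn* (0.14 and 0.06), with *Apoe* at 0.11 and 0.11 after thinning, and for *Ms4a6b* they were *Apoe* (0.19 and 0.10), *Selenop* (0.16 and 0.13), and *Ctsb* (0.15 and 0.10, after thinning 0.03 and 0.07). For *Ms4a6c* they were *Selenop* (0.17 and 0.22), *Pf4* (0.15 and 0.19), and *Itm2b* (0.14 and 0.07), and for *Ms4a6d* *C1qb* (0.12 and 0.11), *Cd81* (0.12 and 0.02), and *Ctsb* (0.11 and 0.09). *Ms4a4a* was most like *Ctsb* (0.09 and 0.06), *Apoe* (0.09 and 0.09), and *Pla2g7* (0.08 and 0.06). *Ms4a4c* had the antigen presentation genes *H2-Ab1* (0.07 and 0.04), *H2-Eb1* (0.07 and 0.08), and *Cd74* (0.07 and 0.07). *Ms4a14* had *Blvrb* (0.07 and 0.05), *Hp1bp3* (0.07 and 0.03), and *Akr1a1* (0.06 and 0.04) from its few UMIs.

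Of the 12 other *Ms4a* genes, 9 had no UMI in any cell, among them *Ms4a1* and *Ms4a2*. Their intervals reach 1.53 CPM in YFP− against 0.547 CPM in YFP+ cells. *Ms4a8a* had 15 UMIs in YFP− (6.2 CPM) and 31 in YFP+ cells (4.59 CPM), and *Ms4a4b*, which shares stretches with *Ms4a4c*, had 14 (5.79 CPM) and 58 (8.60 CPM). *Ms4a4d* had 0 and 2 UMIs. The members of the family tied to B cells and mast cells were thus not detectable at this depth.

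The related *Tmem176a* and *Tmem176b*, which encode proteins of like membrane topology, were at 670 and 699 CPM and at 1197 and 1261 CPM in YFP− against YFP+ cells. Of the 12 genes fixed as receptors or signaling partners described with MS4A proteins, 11 were detected in both libraries, and none of these differed by 1.5-fold. *Clec7a* was at 136 CPM in YFP− against 128 CPM in YFP+ cells (log2 ratio −0.08, −0.27 to 0.10) and *Trem2* at 317 and 353 CPM (0.16, 0.04 to 0.27). *Vsig4*, the partner described for MS4A6D, had 9 UMIs in YFP− cells (3.72 CPM) and 0 in YFP+ cells, for which the interval reaches 0.547 CPM. The lower level of *Ms4a4a* in YFP+ cells was thus not accompanied by a like difference in *Clec7a* or *Trem2*.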

How the data were processed

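Single-cell RNA of macrophages sorted from sciatic nerve was measured with 10x Chromium 3′ chemistry (v2), in 1 YFP− and 1 YFP+ library. The authors deposited unnormalized UMI counts for each gene in each barcode, made with Cell Ranger on mm10 (GRCm38). The submitters' processing notes name release 3.0.2 and Seurat 2.2.0, whereas the methods name an earlier Cell Ranger release. The annotation release is not given in the sources used here, and the authors' cell filter used mapped reads, which the tables do not hold.

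The 7 members, the marker lists, and the tests were chosen with earlier results of these data known. Barcodes with at least 500 UMIs and 200 genes were kept. They hold 66.2% of the UMIs of the YFP− and 72.0% of those of the YFP+ table. Counts were summed per library and scaled to CPM, with exact Poisson intervals, and ratios carried exact binomial intervals after adding 1 CPM. All intervals cover counting error only. With 1 library per group no condition was tested. For shares and list splits, cells were thinned to 500 UMIs. Clustering left out *Ms4a* genes and used 2000 variable genes, 20 principal components, 20 neighbors, and Leiden resolution 0.8 (scanpy 1.11.5, leidenalg 0.10.2). Scrublet marked 3 of 1045 YFP− and 0 of 4053 YFP+ cells, too few to have worked, so doublets were kept. Leading genes of a cluster had the largest ratio over other cells among genes with at least 100 CPM in it. Genes alike to a member were the 3 with the highest Pearson's r in YFP+ cells among genes with at least 100 CPM in both libraries. Other *Ms4a* genes were named from 3 UMIs in a library. Promoter windows came from RefSeq (GRCm38.p6) and were aligned locally (match 1, mismatch −1, gap −2). Code was tested on simulated data. Computation used Python 3.11.15 with scipy 1.17.1 and numpy 2.4.6. Alternatives covered the cell filter, depth, scaling, pseudocount, low-value filter, free RNA, list thresholds, and clustering.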

Additional observations from a re-analysis of the deposited data

How the results depend on the processing

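No paired analysis was possible because each condition had 1 library. For single members between the libraries, all 63 values under alternative settings stayed within their counting interval and kept their direction, other than *Ms4a6d* at −0.0053 with each cell weighted equally. Some of these settings could move little. Leaving out doublets dropped 3 YFP− cells, and the limit of 10% mitochondrial UMIs dropped 3 YFP− cells and 1 YFP+ cell. The barcodes found in both libraries numbered 7, and centering used a median log2 ratio of −0.0024. With 10% of UMIs removed as free RNA, 2 members differed 1.5-fold in place of 1, as *Ms4a4c* then had a log2 ratio of 0.60. With genes from a mean of 5 CPM, 12.8% of all genes differed 1.5-fold in place of 7.3%. The share of cells with any member was 88.1% in YFP− and 83.5% in YFP+ cells without thinning, and 79.2% and 77.7% at 1000 UMIs, since it follows depth.

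Counts of members in the list splits changed with the setting. At 1000 UMIs, 1 member was lower with the Ccr2 list (2.44% of all genes) and 1 higher with the interferon list (1.92%). At this depth, 0 were higher with the activated microglia list (0.76%) and 1 was lower with the cycling list (3.55%). With at most 10% of cells as upper cells, 4 were lower with the Ccr2 list (7.19%) and 2 with the cycling list (13.2%). Under this limit, 1 was higher with each of the resident scavenger (4.13%), activated microglia (3.04%), and homeostatic microglia lists (4.18%). With all UMIs of the cells (chosen after seeing the data), 0 were lower with the Ccr2 list (0.724%) and 0 higher with the interferon list (1.25%). In this setting, 1 was higher with each of the resident scavenger (0.616%) and activated microglia lists (0.434%). With *Apoe* left out of the activated microglia list (also chosen after seeing the data), 0 were higher, from thinned (1.9%) or from all UMIs (0.362%). In the 14 splits of these settings in which a member was counted, 0.326% to 13.2% of all genes were. Among ratios whose interval lay to one side of 0 or whose member was counted, directions turned for *Ms4a4a* with the Ccr2 list (0.015) and *Ms4a6d* with the interferon list (−0.22) in YFP− cells at 1000 UMIs, and for *Ms4a6c* with the early response (0.0084, all UMIs) and inflammatory lists (0.071, 1000 UMIs) in YFP− cells. Without *Apoe* in the activated microglia list they turned in YFP− cells for *Ms4a7* (−0.32 thinned, −0.0033 with all UMIs), *Ms4a6b* (−0.99 and −0.17), and *Ms4a6d* (−0.069 with all UMIs). They also turned for *Ms4a6d* with the inflammatory list in YFP+ cells (−0.085, 10% of cells) and for r of *Ms4a14* and *Akr1a1* (−0.0030, thinned). Counting ratios whose interval held 0 as well, 96 of 406 list ratios changed sign under an alternative. Correlations were the least stable, with 17 of 21 moved by 0.05 or more and 1 turned after thinning. The causes were not tested. Between clusters, 6 of 6 members in place of 3 differed 1.5-fold at resolution 1.2 (99.2% of all genes), 6 with 10 principal components (92.4%), and 5 with thinning before clustering (77.9%). *Ms4a14* was left out of these counts. Leaving out barcodes found in both libraries (also chosen after seeing the data) moved no member. With few UMIs per cell, levels of *Ms4a4a*, *Ms4a4c*, and *Ms4a14* in small sets of cells are limited by depth.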
